A study of Drosophila melanogaster with 6 samples.

Results

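Insulin signalling and its growth branch were followed through 9 genes: InR, chico, Lnk, Akt, foxo, Thor, ImpL2, S6k and Tsc1. They were chosen by name from the pathway, by current symbol or synonym, with earlier results of these data known. A probe set naming the gene alone was found for 7 of the 9, and all 7 passed the filter on low signal, out of 7801 genes tested in all. Lnk, an adaptor of the receptor, and Thor, the translation inhibitor 4E-BP, had no named probe set in the table used and were not analysed here. RNA came from male Drosophila melanogaster larvae of the third instar, 50 per preparation, on single-colour Affymetrix Drosophila Genome 2.0 arrays. The mutant group (3 arrays) carried roX1- (the allele SMC17A) together with roX2- on a y+ w X chromosome over Y. The control group (3 arrays) was roX1+ with the same roX2-, y+ w and Y, so that both groups were roX2- and the control was not wild type at roX2. Both roX genes make noncoding RNAs that work in the MSL complex, which raises transcription of the single male X chromosome. The comparison therefore shows how genes of the insulin pathway differ with mutation of roX1 in males that are roX2- in both groups. Preparations were of whole larvae, with 1 roX1 allele, so organs were not separated.

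In Drosophila, insulin-like peptides bind the receptor InR, whose signal runs through the substrate chico, PI3 kinase and Pdk1 to the kinase Akt. Akt holds the transcription factor foxo out of the nucleus and also restrains the Tsc1 and gig complex, a brake on the TOR kinase, which drives translation through S6k and by inactivating Thor. When the signal is weak, foxo is known to activate Thor and InR itself, so that InR is both a member of the pathway and one of its targets.

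Signals were scaled so that the median of autosomal genes was 100 on each array, and log2 differences are given as mutant minus control. Genes with an adjusted p (limma, Benjamini-Hochberg over all genes tested) under 0.05 passed the test. Over all genes the median log2 difference was -0.06, that of the 1111 X-linked genes was -0.29 and that of the 6636 genes on chromosomes 2 and 3 was -0.02. Neither roX RNA has a named probe set in the table used, so the labelled genotype could not be read from these 2 RNAs. Arrays correlated across genes at 0.972 to 0.991 within the mutant and 0.984 to 0.990 within the control. Between groups, mutant array 1 correlated with the controls at 0.917 to 0.926 and the other mutant arrays at 0.889 to 0.908. These correlations run across genes, which are not independent. The number of arrays limits the precision throughout.

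Of the 7 measured genes, all on chromosomes 2 and 3, Tsc1 and foxo were higher in the mutant, while Akt, chico and ImpL2 were lower, and InR and S6k did not pass. Tsc1 differed most, at 1.77-fold the control level, and Akt was next, at 0.645-fold. The 2 rises and 3 falls must be read against all genes, of which 23.1% rose and 32.4% fell, so 5 calls among 7 genes do not set these genes apart. Without rescaling of the deposited values 2406 genes rose and 1709 fell, in place of 1805 and 2525. All 3 mutant arrays lay above all control arrays for 2 members and below them for 3, which held in 26.4% and 36.9% of all genes. By size of the log2 difference, Tsc1 stood at percentile 88.6 of all genes, Akt at 79.0, chico at 60.5, ImpL2 at 57.2, InR at 52.2, foxo at 38.0 and S6k at 12.1.

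**Figure D1:**
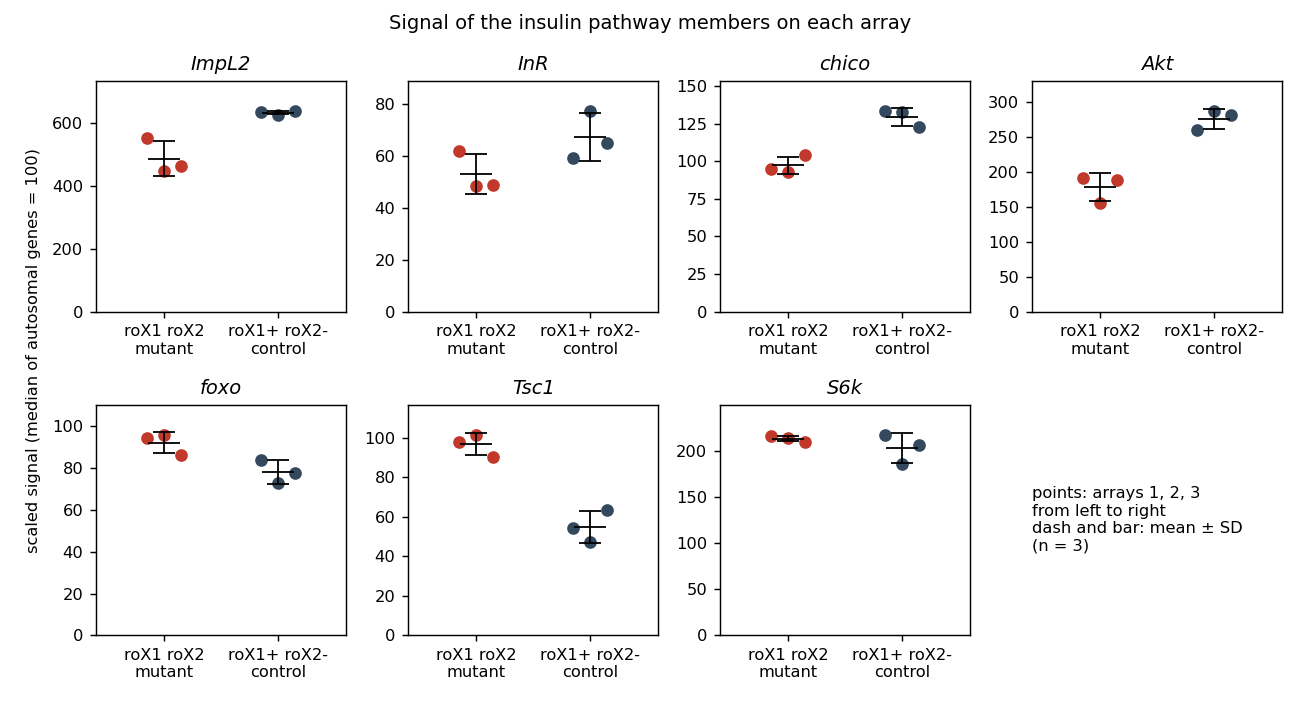
Scaled signal of the 7 measured members on each array (y axis, median of autosomal genes set to 100, starting at 0), with mutant arrays left of control arrays, points for arrays 1, 2 and 3 from left to right, and mean ± SD (n = 3 per group). Mutant and control arrays do not overlap for ImpL2, chico, Akt, foxo and Tsc1, and overlap for InR and S6k.

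**Figure D2:**
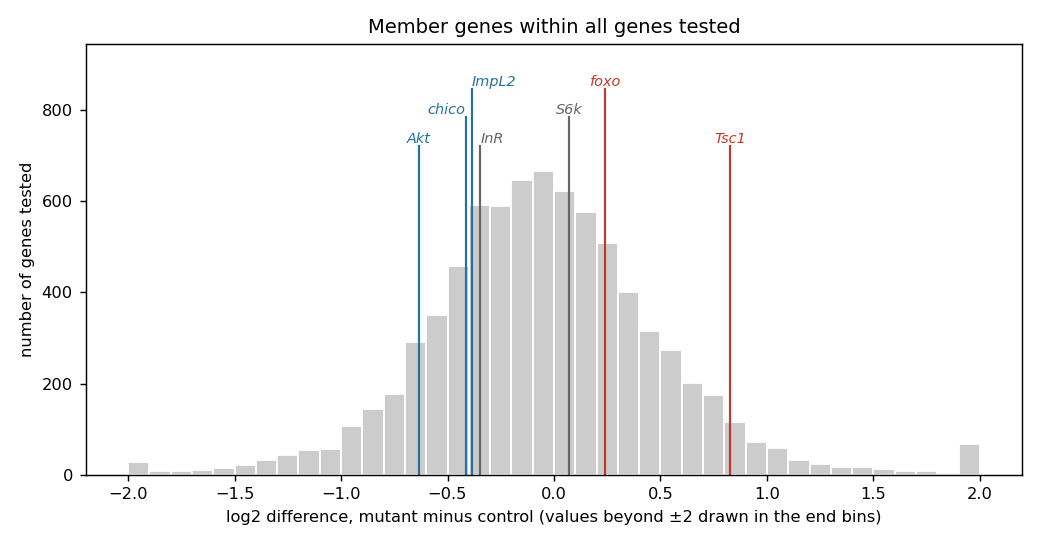
Histogram of the log2 difference, mutant minus control (x axis), over the 7801 genes tested (y axis, number of genes), with a vertical line for each measured member, red where it rose, blue where it fell and grey where it did not pass. Tsc1 (0.83) and Akt (-0.63) lie farthest from 0 among the members, within the spread of all genes.

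ImpL2 (probe set 1636202_s_at, chromosome arm 3L) encodes a secreted protein that binds insulin-like peptides and antagonises insulin signalling, and is also known as an ecdysone-induced gene. Its scaled signal was 551, 447 and 461 on the mutant arrays, against 634, 626 and 637 on the control arrays. Every mutant array lay below every control array, and mutant array 1 lay nearest to them. The mean was 487 ± 56.1 in the mutant and 633 ± 5.94 in the control (SD, n = 3 each), a log2 difference of -0.38 (SE 0.0898, 95% interval -0.59 to -0.18, limma adjusted p = 0.00762). Without rescaling of the deposited values the call was lost (-0.26, adjusted p = 0.0746).

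The lower ImpL2 signal came together with lower signals of late larval genes. Of 12 tested genes of the late larval list, which include glue genes and ecdysone-induced genes, 9 fell and none rose (over all genes 32.4% fell and 23.1% rose), with a median log2 difference of -0.24. Their summed signal was 18207 to 18396 on the mutant arrays and 22114 to 22170 on the control arrays. The X-linked Sgs4 made up 2003 to 2263 of this sum in the mutant and 3302 to 3480 in the control. The lowest scaled signal of the 12 genes on any array was 33.0. Eig71Ea, a late larval gene under the filter, had 11.1, 7.67 and 8.48 in the mutant, against 22.6, 52.6 and 154 in the control. It fell in the fit with no filter (log2 -2.66, limma adjusted p = 0.00684). Its mutant signals and that of control array 1 lay under the median probe set (28.0), and its control arrays differed widely. Eig71Ea was named after its values were seen. Sgs4, a glue protein gene on X, fell by 0.68 and br, an X-linked ecdysone response factor, by 0.79 (log2), on a chromosome whose median was itself -0.29. The autosomal glue genes Sgs8 (-0.23), Sgs3 (-0.17), Sgs5 and Sgs7 (-0.15 each) fell less, and Sgs1 (0.061) did not pass. The autosomal ImpE3 (-1.54) and ImpE2 (-1.10) fell more, and in both mutant array 1 lay nearest to the controls. ImpE1, also autosomal, did not pass (-0.83, limma adjusted p = 0.123). Its mutant array 1 (202) lay above all control arrays (174, 138 and 199). These autosomal genes were named with their values known. In RNA from whole larvae, fewer cells of a type and less RNA per cell cannot be told apart, and the part of stage in the ImpL2 difference was not tested.

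Only 2 of the 11 listed insulin ligands and binding proteins were tested, ImpL2 and conv, and both fell (32.4% of all genes fell). conv, the acid-labile subunit homologue that forms a circulating complex with an insulin-like peptide and ImpL2, had 62.2, 64.9 and 70.0 on the mutant arrays, against 114, 107 and 102 on the control arrays. The groups did not overlap, and the log2 difference was -0.71 (SE 0.0866, limma adjusted p = 0.000422). Ilp2, Ilp5, Ilp7 and Ilp8, genes of insulin-like peptides, and Sdr, which encodes a secreted decoy of InR, lay under the filter on low signal, and Ilp1, Ilp3, Ilp4 and Ilp6 had no named probe set.

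Values of these dim genes are on the same scale, where the median probe set stood at 28.0, and their tests come from a fit with no filter. Ilp2, made in the insulin-producing cells of the brain, had 10.5, 18.4 and 17.0 on the mutant arrays, against 31.9, 22.3 and 18.6 on the control arrays. The groups did not overlap, but every value except that of control array 1 lay under the median probe set, and the difference did not pass (log2 -0.67, adjusted p = 0.0631). Ilp5 did not pass either (-0.32, adjusted p = 0.244), nor did Ilp7 (0.0019, adjusted p = 0.999) and Ilp8 (-0.63, adjusted p = 0.341), both of which lay under 9 on every array. Sdr, named after its values were seen, had 21.5, 22.4 and 19.5 in the mutant, against 32.4, 34.8 and 29.6 in the control, and passed in that fit (-0.61, adjusted p = 0.00388).

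InR (1629141_at, 3R), the insulin receptor, had a scaled signal of 61.8, 48.3 and 48.8 on the mutant arrays, against 59.4, 77.4 and 65.1 on the control arrays. Mutant arrays 2 and 3 lay below all controls, but mutant array 1 lay above control array 1, so the groups overlapped. The mean was 53.0 ± 7.66 in the mutant and 67.3 ± 9.19 in the control (SD, n = 3 each), a log2 difference of -0.35 with a 95% interval of -0.66 to -0.032 (SE 0.136). InR did not pass, at an adjusted p of 0.0601 (limma; unadjusted p = 0.0347). It passed without mutant array 1 (-0.46, adjusted p = 0.013) and without control array 1 (-0.43, adjusted p = 0.0433), while without rescaling it stood at -0.22 and with an offset of 50 at -0.19.

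chico (1631374_at, 2L), the insulin receptor substrate, had 94.8, 93.0 and 104 on the mutant arrays, against 133, 133 and 123 on the control arrays. The highest mutant array stayed below the lowest control array. The mean was 97.3 ± 5.85 in the mutant and 130 ± 5.96 in the control (SD, n = 3 each), and the log2 difference was -0.41 (SE 0.0838, 95% interval -0.61 to -0.22, limma adjusted p = 0.00401).

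Akt (1639064_s_at, 3R), the central kinase of the branch, had 191, 156 and 188 on the mutant arrays, against 260, 287 and 281 on the control arrays. No mutant array reached the lowest control array, and mutant array 2 was lowest. The mean was 178 ± 19.7 in the mutant and 276 ± 14.4 in the control (SD, n = 3 each), and the log2 difference was -0.63 (SE 0.102, 95% interval -0.87 to -0.40, limma adjusted p = 0.00138).

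Other genes that act at the receptor or between it and Akt also fell. Of the 11 genes listed for the receptor and PI3 kinase branch, 5 were tested, of which 4 fell and none rose, beside 32.4% falls and 23.1% rises among all genes, with a median log2 difference of -0.41 against -0.06 for all genes. Beside chico and Akt these were Pdk1, the kinase that phosphorylates Akt, and Dok, an adaptor protein gene on X. Pdk1 had 232, 184 and 166 on the mutant arrays, against 254, 242 and 270 on the control arrays, with no overlap (-0.41, SE 0.127, adjusted p = 0.0254). Its call was lost in 6 of 17 alternative settings, among them without rescaling (-0.28) and without mutant array 2 or 3 or any 1 control array.

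Dok had 60.9, 59.8 and 64.4 on the mutant arrays, against 103, 98.3 and 97.7 on the control arrays (-0.69, SE 0.0773, adjusted p = 0.000297). The groups were far apart relative to their spread, on a chromosome whose median was itself -0.29. melt, which encodes a membrane-recruited modulator of the pathway, lay under the filter and was higher in the mutant in the fit with no filter, with 26.8, 27.9 and 25.8, against 19.5, 20.3 and 15.3 in the control (0.56, adjusted p = 0.0117). It was named after its values were seen, and all its values were under the median probe set. Pi3K92E, Pi3K21B and step had no named probe set, so the lipid kinase step was not covered here.

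foxo (1631597_at, 3R), the transcription factor that insulin signalling restrains, had 94.3, 96.0 and 86.4 on the mutant arrays, against 84.0, 73.0 and 77.7 on the control arrays. The lowest mutant array was only slightly above the highest control array. The mean was 92.2 ± 5.08 in the mutant and 78.2 ± 5.53 in the control (SD, n = 3 each), and the log2 difference was 0.24 (SE 0.0889, 95% interval 0.034 to 0.44, limma adjusted p = 0.0496). The call lay at the threshold and was lost in 8 of 17 alternative settings: without mutant array 1 (0.22), mutant array 2 (0.21), control array 2 (0.19) or control array 3 (0.23), with no signal filter (0.24), every probe set, robust eBayes or the replicate number as a block (0.24 each). It stood at 0.37 without rescaling and at 0.15 with an offset of 50.

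With Thor not measured, InR was the target of foxo that could be set against the other members. The log2 difference of InR minus that of the other gene was 0.068 for chico, 0.039 for ImpL2 and 0.29 for Akt, and the arrays of both groups overlapped in each of these ratios. For S6k it was -0.42, also with overlap. For foxo itself it was -0.58 and for Tsc1 -1.17, and every mutant array lay below every control array. Exact two-sided permutation tests of these 6 ratios gave p = 0.1 for foxo and for Tsc1, the smallest that 3 against 3 arrays allow, p = 0.2 for Akt and S6k and p = 0.8 for chico and ImpL2. After Benjamini-Hochberg adjustment over the 6, none was under 0.3. The InR value was of the same sign as those of chico, Akt and ImpL2 and of opposite sign to those of foxo and Tsc1, and these tests show neither likeness nor difference.

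Of the 9 genes listed as foxo and its reported targets, 6 were tested, of which 3 rose, foxo itself included, and 1 fell (23.1% and 32.4% of all genes). Beside foxo, the lipase gene Lip4 had 66.7, 98.2 and 97.7 on the mutant arrays, against 70.0, 58.5 and 60.0 on the control arrays (log2 0.46, SE 0.16, adjusted p = 0.0388). Mutant array 1 lay within the control range for Lip4, and its call was lost in 5 of 17 alternatives (values of 0.37 without mutant array 2 or mutant array 3, 0.41 without control array 2, 0.43 without control array 3 and 0.46 with the replicate block). daw, an activin-like ligand that foxo is reported to repress, had 261, 273 and 271 in the mutant, against 232, 214 and 190 in the control. Its groups did not overlap, and it rose by 0.34 (SE 0.0919, adjusted p = 0.0135), a call lost without control array 3 (0.27).

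Sesn, the sestrin gene, an inhibitor of TOR signalling, had 134, 111 and 98.8 in the mutant, against 163, 146 and 191 in the control, and fell (-0.55, SE 0.139, adjusted p = 0.0111). bmm, the triglyceride lipase gene brummer, had 268, 293 and 292 in the mutant, against 343, 335 and 295 in the control. Its highest mutant array lay just under its lowest control array, and it did not pass (-0.19, adjusted p = 0.099). Of the reported targets tested, Lip4 and daw lay above 0, and InR, Sesn and bmm below it. As foxo is reported to repress daw, its rise cannot be read in the same way as that of Lip4.

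The 3 genes with values most like InR over the 6 arrays were CG5758, CG12395 and CG8750. The root mean square distance between their log2 deviations from the control mean and those of InR was 0.0466, 0.0479 and 0.0524. Their log2 differences were -0.29, -0.33 and -0.38, and each had its control array 2 highest, as InR did. They were picked for likeness on these same arrays, so the shared pattern follows from the choice. CG8750 passed (limma adjusted p = 0.0287), while CG5758 and CG12395, like InR, did not.

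Tsc1 (1640930_at, 3R), the hamartin subunit of the complex that inhibits TOR, had 98.1, 102 and 90.5 on the mutant arrays, against 54.2, 47.0 and 63.3 on the control arrays. Mutant arrays were close together and all well above the controls. The mean was 96.7 ± 5.63 in the mutant and 54.9 ± 8.17 in the control (SD, n = 3 each), and the log2 difference was 0.83 (SE 0.119, 95% interval 0.55 to 1.10, limma adjusted p = 0.000846). With an offset of 50 added before the logarithm it was 0.49 and still passed.

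The partner of Tsc1 and the TOR kinase itself rose as well. Of 21 genes listed for the TSC and TOR branch, 16 were tested, with a median of -0.017. Of these 6 (37.5%) rose and 3 (18.8%) fell, beside 23.1% and 32.4% of all genes, while 7 did not pass. The share called, 56.2%, was close to the 55.5% of all genes. gig, the tuberin partner of Tsc1, had 50.5, 55.5 and 47.7 in the mutant, against 42.0, 28.9 and 33.1 in the control (log2 0.58, SE 0.145, adjusted p = 0.0104). mTor, the TOR kinase, had 54.3, 52.5 and 44.8 in the mutant, against 33.9, 26.6 and 31.2 in the control (0.73, SE 0.125, adjusted p = 0.00191). In both, the groups did not overlap, but control arrays lay close to the median probe set (28.0), and with an offset of 50 the differences were 0.26 and 0.32, so their sizes are uncertain. gig and mTor, like mio and Nup44A, were named after their values were seen.

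Nutrient-sensing GATOR complexes, which regulate TOR at the lysosome, contributed 3 of these rises. Iml1, of the inhibitory GATOR1 complex, had 79.2, 84.0 and 69.7 on the mutant arrays, against 42.9, 30.4 and 33.5 on the control arrays, at 2.20-fold (log2 1.14, SE 0.141, adjusted p = 0.000465). Its control arrays 2 and 3 lay close to the median probe set (28.0). With an offset of 50 the difference was 0.58, so its size is uncertain. The GATOR2 genes mio (0.45, adjusted p = 0.0053) and Nup44A (0.27, adjusted p = 0.0322) rose by less, and the Nup44A call was lost in 5 of 17 alternatives. Nprl2 (0.029) and Nprl3 (-0.20), partners of Iml1 in GATOR1, did not pass.

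Falls in this branch were Lst8, REPTOR-BP and Sesn. Lst8, a subunit of both TOR complexes and X-linked, had 59.6, 56.9 and 61.4 in the mutant, against 88.0, 94.1 and 96.0 in the control (log2 -0.64, SE 0.0801, adjusted p = 0.000465). REPTOR-BP, the partner of a transcription factor that acts when TOR is low, had 262, 266 and 303 in the mutant, against 429, 406 and 387 in the control (-0.56, SE 0.0868, adjusted p = 0.0012). The groups did not overlap in either gene. Raptor lay under the filter, and Rheb, the GTPase on which the Tsc1 complex acts, had no named probe set.

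**Figure D3:**
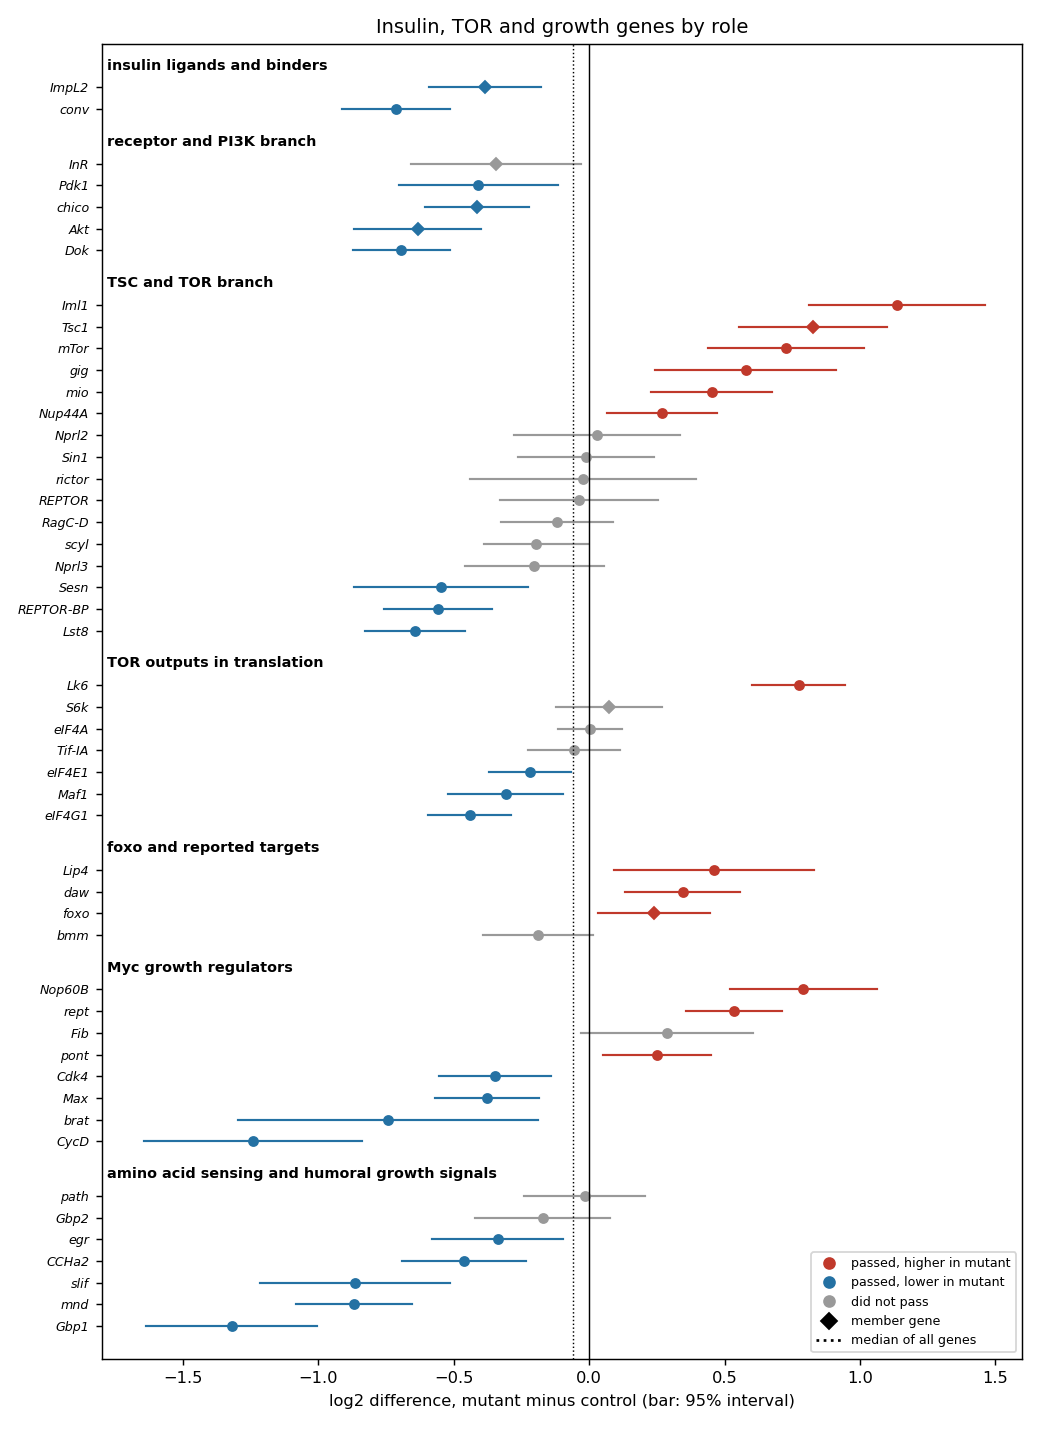
Log2 difference, mutant minus control (x axis, points), with 95% intervals (bars) for the 49 tested genes of the 7 pathway lists, grouped by role and each drawn once, with members as diamonds and a dotted line at the median of all genes (-0.06). Points of the receptor and PI3 kinase branch all lie left of 0, while Iml1, Tsc1, mTor and gig head the TSC and TOR branch on the right.

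S6k (1624244_at, 3L), the ribosomal protein S6 kinase, had 215, 214 and 210 on the mutant arrays, against 217, 185 and 207 on the control arrays. The mutant values fell inside the control range. The mean was 213 ± 2.96 in the mutant and 203 ± 16.3 in the control (SD, n = 3 each), and the log2 difference was 0.072 with a 95% interval of -0.12 to 0.27 (SE 0.0852, limma adjusted p = 0.499). It passed under none of the 17 alternatives, whose values ran from 0.0058 to 0.20.

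Of 10 genes listed as TOR outputs in translation, 7 were tested. Of these 1 (14.3%) rose and 3 (42.9%) fell, beside 23.1% and 32.4% of all genes. The share called (57.1%) was again close to that of all genes (55.5%). Lk6, a kinase that phosphorylates the cap-binding protein eIF4E1, had 575, 610 and 581 in the mutant, against 356, 321 and 357 in the control, at 1.71-fold (log2 0.77, SE 0.0743, adjusted p = 0.000188). The spread within each group was small beside that gap. eIF4G1, the scaffold of the cap-binding complex, a gene of chromosome 4, had 533, 514 and 520 in the mutant, against 699, 747 and 683 in the control (-0.44, SE 0.0662, adjusted p = 0.00104). eIF4E1 (-0.22, adjusted p = 0.0225) and Maf1, a repressor of RNA polymerase III (-0.31, adjusted p = 0.0219), fell by less, and each call was lost in 5 of 17 alternatives. Without rescaling eIF4E1 stood at -0.093 and Maf1 at -0.18.

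Among Myc growth regulators 8 of 11 were tested, with 3 rises and 4 falls (23.1% and 32.4% of all genes) and a median of -0.049. Nop60B, a pseudouridine synthase of ribosomal RNA, rose by 0.79 (log2, adjusted p = 0.000991), with 150, 135 and 124 in the mutant, against 91.3, 73.0 and 73.3 in the control. rept, an ATPase that works with Myc, rose by 0.54 (adjusted p = 0.000844), and Max, the dimer partner of Myc, fell by 0.38 (adjusted p = 0.00598). CycD, a growth-promoting cyclin gene on X, had 26.3, 21.9 and 31.7 in the mutant, against 51.6, 74.8 and 62.7 in the control (-1.24, adjusted p = 0.000786). The mutant mean of CycD (26.7) lay under the median probe set, and with an offset of 50 its difference was -0.56. Myc itself had no named probe set.

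Of 13 genes listed for amino acid uptake and humoral growth signals, 8 were tested, of which 5 fell and 1 rose, beside 32.4% falls and 23.1% rises among all genes, with a median of -0.40. Gbp1, a growth-blocking peptide of the fat body that promotes insulin secretion, had 68.3, 55.5 and 46.1 on the mutant arrays, against 135, 142 and 141 on the control arrays, at 0.40-fold (log2 -1.32, SE 0.137, adjusted p = 0.000237). The amino acid transporter genes mnd and slif fell as well. mnd had 69.5, 65.3 and 76.0 in the mutant, against 120, 128 and 137 in the control (-0.87, adjusted p = 0.000259). slif had 202, 144 and 155 in the mutant, against 255, 330 and 324 in the control (-0.87, adjusted p = 0.00206). CCHa2, a nutrient-dependent peptide hormone gene, had 132, 124 and 150 in the mutant, against 172, 193 and 193 in the control (-0.46, adjusted p = 0.00524). In all 4 the groups did not overlap, and none of these calls was lost under any of the 17 alternatives.

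Over the 7 lists, 49 of 80 distinct genes were tested, of which 13 (26.5%) rose, 21 (42.9%) fell and 15 did not pass, with a median log2 difference of -0.19. This compares with 23.1% and 32.4% of all genes. A further 13 had a named probe set under the filter, of which 1 rose and 4 fell in the fit with no filter. Without rescaling, which moves the median of all genes to 0.067, rises and falls in the lists numbered 14 and 14.

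Counts of tissue markers are read against the 23.1% of all genes that rose and the 32.4% that fell. In muscle 4 of 6 genes rose and none fell, with a summed signal of 2818 to 4173 on the mutant arrays and 2157 to 2605 on the control arrays, and with sls (log2 1.97) and Prm (0.75) lowest in p. With the mean of probe sets in place of the brightest, sls was at 1.28 and Prm at 0.83. In fat body, the main organ of nutrient sensing, 5 of 11 rose and 3 fell, and the sums overlapped, at 10386 to 12196 in the mutant and 10694 to 10995 in the control. FASN1, fatty acid synthase, was at 2.35 and mdy, a diacylglycerol acyltransferase gene, at -1.24. In the nervous system 2 of 3 fell, Appl at -1.02 and elav at -0.53 (a call lost in 3 of 16 alternatives). Both are X-linked, on a chromosome whose median was itself -0.29. The autosomal repo stood at -0.045 and did not pass. In the fit with no filter the dim neuronal genes brp (-0.12), nSyb (0.023) and para (0.25) did not pass, and these were named with their values known. The 3 tested genes had sums of 84.6 to 94.1 in the mutant and 102 to 141 in the control. Imaginal disc genes (1 of 6 rose, 2 fell) summed to 263 to 338 in the mutant and 302 to 370 in the control. The falls were vg at -0.67 (a call lost in 2 of 16 alternatives) and en at -0.64. nub rose by 0.35, while ap, Dll and dpp did not pass, and these were named with their values known. Midgut genes (2 of 6 rose, 1 fell) summed to 7102 to 7612 in the mutant and 7004 to 7664 in the control, with the trypsin gene lambdaTry at 3.77. The control signals of lambdaTry (6.57, 24.5 and 5.54) lay under the median probe set, so it passed the filter through the mutant arrays, and its difference was 1.57 with an offset of 50. Values at or below 0 had been set to the lowest above 0, so no marker could stand at 0. The lowest marker signal on any array was 5.54, that of lambdaTry. The part of organ proportions in the members' differences was not tested.

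**Figure D4:**
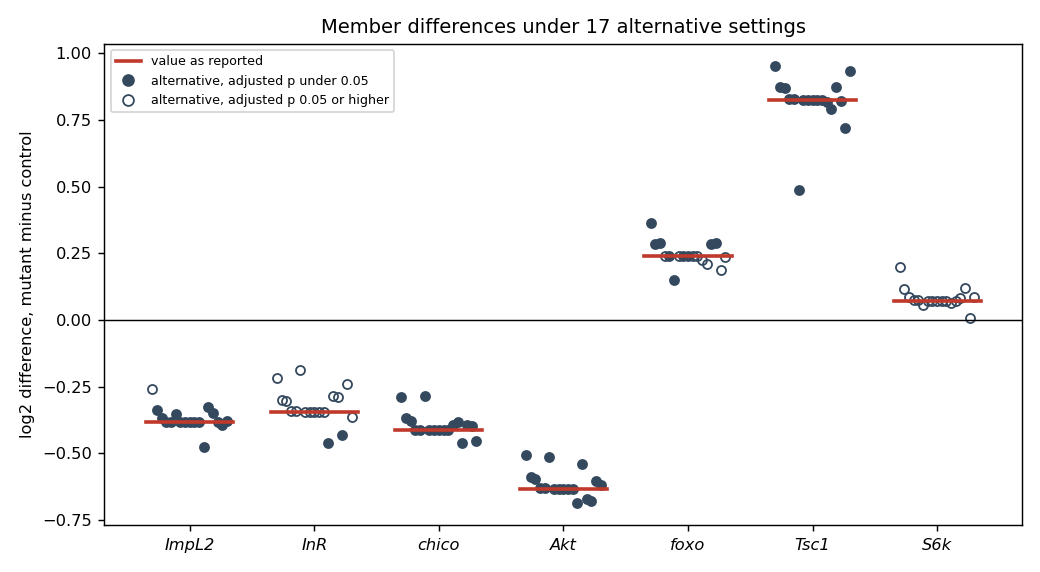
Log2 difference, mutant minus control (y axis), of each measured member (x axis) as reported (red line) and under 17 alternative settings (points, filled where the adjusted p was under 0.05 and open otherwise). Akt, chico and Tsc1 are filled throughout, ImpL2 has 1 open point, foxo has 8, InR has 2 filled points and S6k has none, and no point crosses 0.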

How the data were processed

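The authors deposited 1 intensity value per probe set and array on a linear scale, from single-colour Affymetrix Drosophila Genome 2.0 arrays, with GCOS 1.2 as the software in the submitters' processing notes. The design text, per the labels, says that genes were filtered on perfect match minus mismatch calls and that autosomal medians were brought to 100. In the deposited values the array medians were 100.3 to 107 over all probe sets and 164 to 184 over those of 1 autosomal gene, so which probe sets the authors scaled on is not known here, and how probes were summarised is not stated in those sources.

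Of 18952 probe sets, 183 were controls, 13647 had 1 gene, 402 several and 4720 none listed. Names came from the platform annotation, which can be old, updated through RefSeq genes (Release 6 plus ISO1 MT): 13544 matched by gene ID, 6 by symbol, 85 by an older name, and 12 were kept. The upper 50% of probe sets by mean log2 signal were kept (9384), with values at or below 0 set to the lowest above 0, and the brightest probe set per gene. Arrays were scaled to an autosomal median of 100 (factors 0.246 to 0.280). limma 3.58.1 (eBayes with trend, R 4.3.3) compared 3 mutant with 3 control arrays, checked on simulated data. The preparations are called independent in the design text.

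Members and lists were chosen with earlier results of these data known. Tor and bent, 2 list names, were mapped to mTor and bt after the files were seen. Named genes were all members, up to 4 of smallest p per pathway list and 2 per tissue or stage list, and the 3 closest to InR; the same was planned for Thor. Alternatives changed scaling, filter, offset, probe set choice, variance model, replicate block and the arrays used.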

Additional observations from a re-analysis of the deposited data

How the results depend on the processing

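Over 17 alternatives, 11 of the processing and 6 that leave out 1 array each, none of the 52 genes followed changed direction. Of the 47 that passed, 31 kept their call in every alternative that tested them, Akt, chico and Tsc1 among them, and 16 lost it at least once. Member rises numbered 1 in place of 2 with no signal filter, every probe set, robust eBayes and the replicate block, and 1 to 2 on leaving out 1 array. In each of these the lost call was foxo, whose adjusted p ran from 0.0138 to 0.151. Rises over all genes ran from 1389 to 1815 and falls from 2138 to 2533 on leaving out 1 array. Rises made up 41.7% of all calls (1805 against 2525 falls), and 58.5% without rescaling (2406 against 1709), 47.3% with scaling on all genes and 46.9% with quantile normalization. The replicate numbers of the titles did not pair the arrays: deviations from the group means of same-numbered arrays correlated at -0.34, -0.064 and -0.38. Between arrays of different numbers these correlations ran from -0.36 to 0.51, highest for mutant array 1 with control array 3. With the replicate block, 9 rises and 18 falls were called over the pathway lists in place of 13 and 21. Low signal limits gig, mTor, Iml1, CycD, lambdaTry, sls, Appl, elav, vg and the insulin-like peptides, among others. With an offset of 50 the log2 difference was 1.08 for sls, -0.40 for Appl, -0.22 for elav and -0.27 for vg.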
